A study of Mus musculus with 9 samples.

Results

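Cortical thymic epithelial cells (cTEC) of mice rescued from the nude defect by a Foxn1 transgene were compared with cTEC of mice that keep their own, floxed Foxn1 gene. The members are the 8 RNA libraries of these 2 groups out of 20 RNA libraries in the series, and the comparison was run over every gene of the deposited table. The homozygous transgenic group holds 3 libraries from mice homozygous for a Foxn1 bacterial artificial chromosome (BAC) transgene on the nude background, and the labels name no drug treatment for it. The floxed control group holds 5 libraries from mice homozygous for the beta5t-rtTA locus and for Foxn1 fl/fl, which lack the tetO-Cre transgene and were taken 72 h after doxycycline. The controls carry no Cre to recombine the floxed gene, but both the drug and the homozygous beta5t-rtTA locus are present in every control. The sort took EpCAM+ MHC class II+ cells without CD45, and among them those with Ly51 and without UEA1 binding. The groups thus differ at once in the Foxn1 locus, the beta5t locus, doxycycline, breeding line and experimental set. These cannot be told apart in any result of this comparison. Ages are not given in the labels used here, nor whether each library came from a separate animal or from a pool.

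Foxn1 is a forkhead transcription factor that thymic epithelial cells need to differentiate, and nude mice lack its function. Cortical cells attract blood-borne progenitors with chemokines, commit them to the T lineage through the Notch ligand Dll4, and display peptides on MHC class I and II for positive selection. Their class I peptides are cut by the thymoproteasome, a proteasome whose catalytic subunit beta5t is encoded by Psmb11 and takes the place of the constitutive beta5 (Psmb5) or the immunoproteasome subunit beta5i (Psmb8). The rtTA activator of the control mice, which responds to doxycycline, is named in the labels after that subunit. The transcripts at both engineered loci are therefore given first.

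The 3 genes with large positive differences that lie at these loci were Psmb11 and the neighbours of Foxn1, Unc119 and Slc13a2. Their proximal promoters are shown, from RefSeq on build GRCm38.p6, as the 250 bases before the listed start site. The 5-base core GACGC, known as part of the motif bound by Foxn1, or its reverse complement GCGTC, is in capitals. The Psmb11 window lies at chr14:54625060-54625309 (plus strand), the Unc119 window at chr11:78343245-78343494 (plus strand, 1 of 3 listed starts) and the Slc13a2 window at chr11:78422235-78422484 (minus strand). The start site listed for Slc13a2 lies inside the gene interval given below, so the last bases of its window overlap that interval.
Psmb11: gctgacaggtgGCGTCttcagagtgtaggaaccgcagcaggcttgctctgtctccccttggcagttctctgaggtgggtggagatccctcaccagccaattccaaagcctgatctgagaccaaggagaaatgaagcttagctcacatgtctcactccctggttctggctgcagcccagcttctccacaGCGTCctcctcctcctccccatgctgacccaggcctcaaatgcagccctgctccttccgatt
Unc119: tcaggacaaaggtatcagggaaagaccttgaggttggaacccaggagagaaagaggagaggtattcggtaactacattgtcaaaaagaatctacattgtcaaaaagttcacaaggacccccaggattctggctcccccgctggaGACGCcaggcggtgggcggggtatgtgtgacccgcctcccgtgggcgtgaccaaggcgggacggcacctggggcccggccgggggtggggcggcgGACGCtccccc
Slc13a2: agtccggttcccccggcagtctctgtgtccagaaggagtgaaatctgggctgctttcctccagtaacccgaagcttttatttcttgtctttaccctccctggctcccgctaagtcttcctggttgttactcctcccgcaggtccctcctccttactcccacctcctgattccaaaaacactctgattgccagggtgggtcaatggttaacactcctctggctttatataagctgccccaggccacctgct
Psmb11 holds 2 copies of GCGTC, Unc119 holds 2 copies of GACGC, and the Slc13a2 window holds neither. On either strand the 5 letters occur in 7423 of 32851 listed windows of this length (22.6%). A match of this kind is a description of the sequence and does not show binding.

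The 8 libraries were of near equal depth, from 21027043 to 22372633 counts each. Values below are CPM, counts divided by the library's total and scaled to 1000000, and log2 fold changes are homozygous minus control with their standard error (SE). The homozygous libraries were close to each other (Pearson r of log2 CPM 0.997 to 0.998 between pairs), and the controls varied more (0.955 to 0.989). On average 19972 ± 198.5 genes had a count in the homozygous and 20715.6 ± 345.2 in the control libraries (SD, n = 3 and 5). Every homozygous library was below every control (exact permutation test, two-sided, p = 0.0357, the smallest 3 against 5 can give, and 0.0714 adjusted over 2 such values). Control library 1 stood apart in Xist, at 2.10 CPM against 384 to 563 in the other controls, while Ddx3y of the Y chromosome was counted in all 8 libraries (24.6 to 94.0 CPM). Summed over 6 sex-linked transcripts, these 2 among them, CPM ran from 391 to 762 in homozygous and from 258 to 635 in control libraries. Whether libraries hold cells of both sexes was not tested.

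Foxn1 itself was higher in the homozygous transgenic cells. It had 1484, 1299 and 1311 CPM in the 3 homozygous libraries and 407, 515, 351, 416 and 579 CPM in the 5 controls. Every homozygous library was above every control. The log2 fold change was 1.59 ± 0.16 SE (3.02-fold, adjusted p = 5.98e-04, edgeR quasi-likelihood test with Benjamini-Hochberg adjustment over all genes). The count pools reads of the transgene, of the nude allele in the homozygous mice and of the floxed allele in the controls, so it does not give the amount of working Foxn1.

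Psmb11, the gene of beta5t, was nearly absent from the controls. It had 1053, 961 and 978 CPM in the homozygous libraries and 0.457, 0.410, 0.947, 0.997 and 1.79 CPM in the controls, which is 9 to 40 counts per control library. The log2 fold change of 10.07 ± 0.36 SE (1077-fold, adjusted p = 1.62e-06) was the largest positive value among the genes named here. A defining cTEC marker is therefore nearly missing from all 5 control libraries, which carry the beta5t-rtTA locus in homozygous form. The Foxn1-deleted mice, which carry that locus too, had 0.319 ± 0.297 CPM, and mice heterozygous for the Foxn1 transgene, which the labels do not give that locus, had 105 ± 3.88 CPM (mean ± SD, n = 5 and 3).

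The nearest neighbours of Foxn1 on both sides were higher as well. Counts per gene cannot tell reads of the chromosomal genes from reads of any copy on the BAC, and this was not tested. Foxn1 lies at chr11:78357577-78386783 (GRCm38.p6). Unc119 at chr11:78343495-78349164, which encodes a lipid-binding trafficking protein, had 732, 750.0 and 674 CPM against 93.1, 122, 115, 99.1 and 133 in the controls (2.68 ± 0.13, 6.41-fold, adjusted p = 1.34e-05). Slc13a2 at chr11:78397276-78422281, a sodium-coupled dicarboxylate transporter, had 114, 66.0 and 91.6 CPM against 14.2, 10.8, 13.2, 13.3 and 24.6 (2.57 ± 0.28, adjusted p = 8.08e-04). For both genes the lowest homozygous library was above the highest control. Slc46a1, a folate transporter, was higher (0.57 ± 0.09, adjusted p = 0.00466), and Pigs, next beyond Unc119, was not called (0.05 ± 0.09, adjusted p = 0.717). Of the 20 protein-coding genes counted as neighbours, 18 could be tested, 6 were higher and 2 lower. Across all 15352 tested genes, 9.31% were called higher and 13.6% lower.

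The other calls around Foxn1 were less firm. Spag5 (0.69 ± 0.20), Poldip2 (0.36 ± 0.09) and Tmem97 (0.96 ± 0.23) were higher and Proca1 was lower (-0.96 ± 0.26). All 4 calls were lost without homozygous library 2 or 3, and all but that of Tmem97 without library 1 (adjusted p 0.0531 to 0.138 over the lost fits). Leaving out control 3 also ended the calls of Spag5 and Proca1, and leaving out control 1 that of Spag5. Vtn, the gene of vitronectin, had 1 count in the homozygous libraries against 79 in the controls, a ratio of 46.1 once scaled to depth (95% counting interval 8.04 to 1840). Its call was lost without any 1 homozygous library and without control 3. Without control 1, 4 or 5 Vtn was not tested, so its call held in 1 fit that left out a library, that without control 2. Psmb11 lies at chr14:54625310-54629556. Around it 16 of 20 neighbours were tested, with 1 higher (Prmt5, an arginine methyltransferase, 0.37 ± 0.08) and 1 lower (Slc7a8, an amino acid transporter, -1.34 ± 0.33). Both of these calls were lost without any 1 homozygous library. Over all tested genes 9.31% were called higher and 13.6% lower, so the counts around Psmb11 are no result about its neighbours. The genes on either side of Psmb11, Psmb5 (0.55 ± 0.21, adjusted p = 0.0885) and Cdh24 (0.09 ± 0.23, adjusted p = 0.809), were not called.

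**Figure D1:**
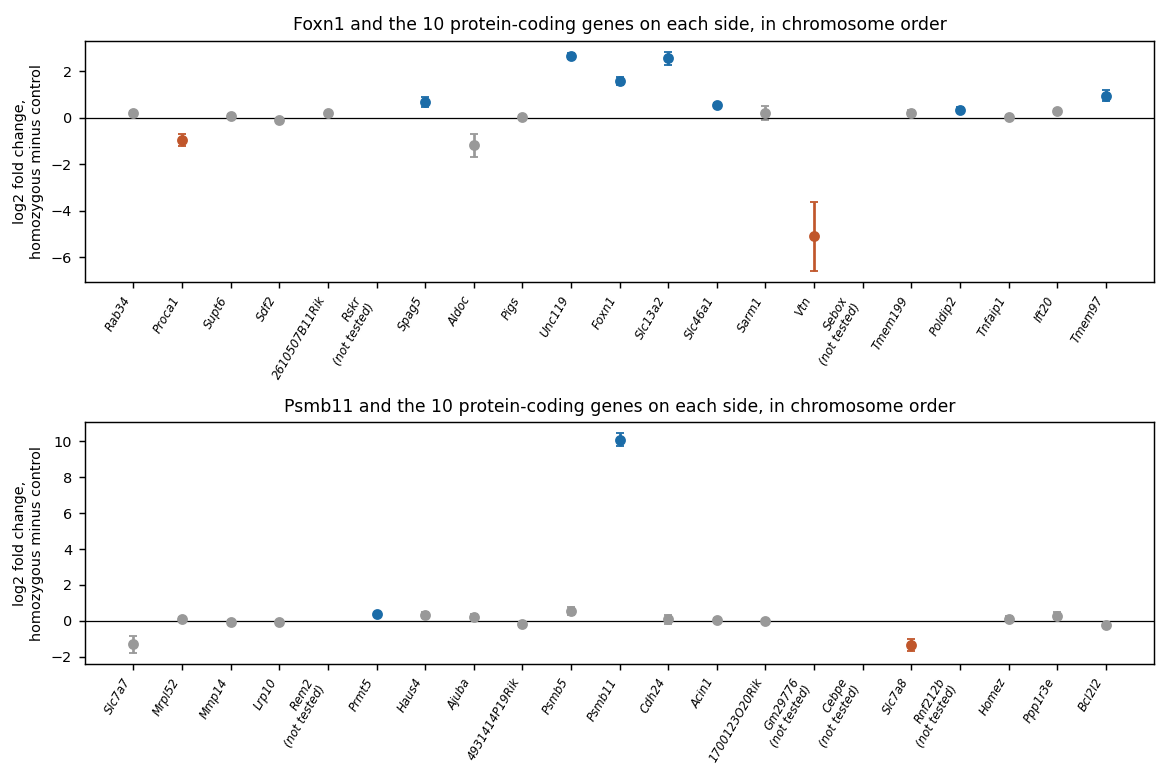
Log2 fold change (homozygous minus control, with SE bars) of Foxn1, of Psmb11 and of the 10 protein-coding genes on each side, in chromosome order without distances. Blue is called higher, orange called lower and grey not called, and Unc119 and Slc13a2 stand beside Foxn1 at 2.68 and 2.57 while Psmb11 stands alone at 10.07.

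Among cTEC genes with roles in thymocyte support, the calls were few. Dll4, the Notch ligand of T-lineage commitment, had 538, 507 and 505 CPM in the homozygous libraries and 174, 127, 268, 157 and 424 in the controls. All 3 homozygous libraries lay above all 5 controls, with control 5 nearest (1.16 ± 0.36, adjusted p = 0.0484). The call was lost in 6 of 8 fits without a library, those without any 1 homozygous library or without control 1, 3 or 4 (adjusted p 0.0759 to 0.130). Ly75, the endocytic receptor CD205 of cTEC, had 1172, 1081 and 1239 against 603, 513, 678, 545 and 890.1 CPM (0.85 ± 0.19, adjusted p = 0.0154), and its call was lost without any 1 homozygous library (adjusted p 0.0522 to 0.0691). Pax1, a transcription factor of the third pharyngeal pouch, had 1137, 1169 and 1083 against 707, 783, 763, 707 and 872 CPM (0.56 ± 0.10, adjusted p = 0.00722) and kept its call in all 8 such fits.

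Several textbook cTEC genes did not pass, and the controls spread widely for each of them. Ccl25, a chemokine for progenitors, had 1039.6, 878 and 1214 CPM in the homozygous libraries and 1337, 546, 1603, 746 and 2706 in the controls (-0.42 ± 0.48, adjusted p = 0.544). Prss16, the thymus-specific serine protease, had 6773, 6330.4 and 7107 against 3743, 2177, 4516, 2510.1 and 8182 CPM (0.66 ± 0.40, adjusted p = 0.257). Ctsl, a lysosomal protease needed for class II ligands in the cortex, had 5672, 5533 and 6199 against 5616, 2662, 5814, 3059.9 and 8349.5 CPM (0.18 ± 0.36, adjusted p = 0.75). In these 3 genes control 5 was above every homozygous library and controls 2 and 4 were the lowest of all 8. Cd83, which stabilises surface class II, ran from 210.5 to 276 CPM in homozygous and 190.3 to 753 in control libraries (-0.74 ± 0.45, adjusted p = 0.257). Cxcl12, a chemokine for progenitors, ran from 2388 to 2524 against 1043 to 2379 CPM, so that the groups just failed to overlap without a call (0.63 ± 0.26, adjusted p = 0.113). Enpep, the gene of the sorting antigen Ly51, had the same mean in both groups (131 ± 5.29 and 131 ± 28.7 CPM, SD, 0.00 ± 0.19, adjusted p = 0.988).

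The cTEC identity list has 20 members, all tested, with 5 higher, 2 lower and a median log2 fold change of 0.38, beside a median of -0.02 over all genes. Of all tested genes 9.31% were called higher and 13.6% lower. The higher members were Psmb11, Foxn1, Dll4, Ly75 and Pax1. The lower members were Scx, a tendon and mesenchyme transcription factor (-1.82 ± 0.30), and Bmp4, a secreted signal of the early thymus (-1.79 ± 0.55), whose call held only in the fit without control 5 among the 8 that leave out a library. Summed over the list, CPM ran from 31284 to 33557 in homozygous and from 13821 to 38101 in control libraries. Controls 2 and 4 had the lowest sums of all 8 libraries and control 5 the highest. Without control 5, 10 of the 20 members were called higher, and without any 1 homozygous library 3 were.

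**Figure D2:**
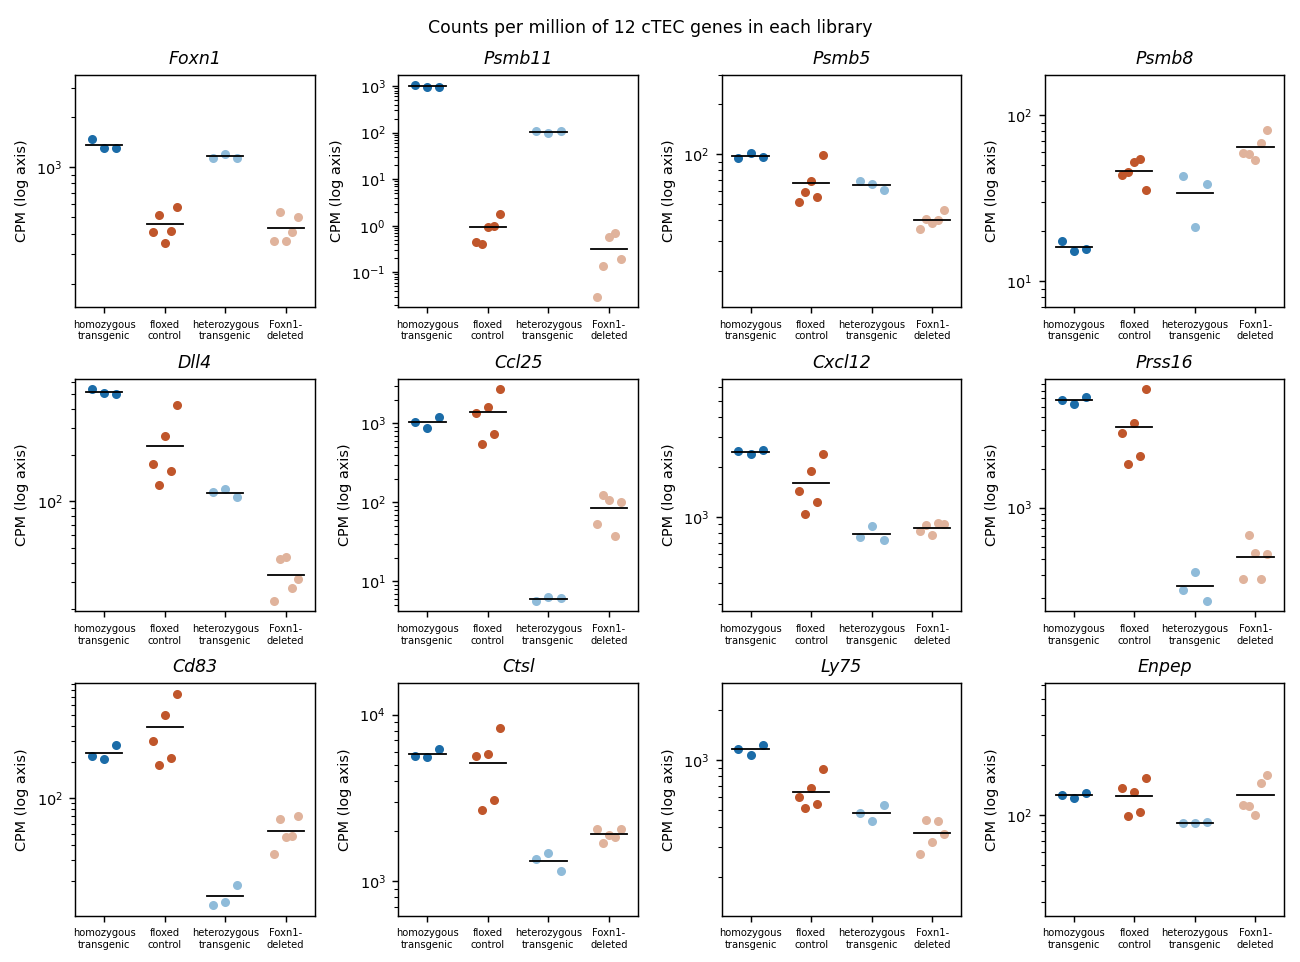
CPM on a log axis of 12 genes of cTEC function and of the sort, 1 point per library with the group mean as a line, for the 2 groups compared here and for heterozygous transgenic and Foxn1-deleted cTEC. Foxn1, Psmb11, Psmb8, Dll4 and Ly75 separate the homozygous transgenic from the control libraries with a call, while the control points of Ccl25, Prss16 and Ctsl lie on both sides of the homozygous ones.

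Among all genes in the comparison 1430 of 15352 tested genes were higher and 2085 lower in homozygous transgenic cells, 22.9% in all. In limma-voom the split was 1456 higher and 1429 lower, so that 49.5% of the calls were lower in place of 59.3%. The lower genes differed more. Their median log2 fold change was -1.35 and 1273 differed at least 2-fold, against a median of 0.50 and 245 such genes among the higher. The groups of libraries did not overlap for 4601 genes (30%). The counts rest on the number of libraries: 476, 392 and 419 genes were higher without homozygous library 1, 2 and 3, and 753, 687 and 699 were lower. Of the controls, library 3 and library 5 mattered most, with 938 genes higher without the first and 2213 without the second.

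The largest positive differences after Psmb11 and Unc119 were in genes with no list in common. Eif4a-ps4, listed as a pseudogene of a translation initiation factor, had 46.5, 56.5 and 49.6 CPM in the homozygous and 6.44, 10.3, 9.61, 6.75 and 7.20 in the control libraries (2.66 ± 0.17). Its reads could also come from its parent family, since near-identical copies share reads. Megf10, a receptor for engulfment of cell debris, had 89.1, 84.9 and 81.5 against 10.6, 14.3, 12.7, 21.8 and 29.5 CPM (2.26 ± 0.29, adjusted p = 0.0018). Bzrap1, a scaffold protein of presynaptic release sites, had 316, 250.4 and 282 against 50.5, 33.8, 39.6, 61.3 and 115 CPM (2.23 ± 0.36, adjusted p = 0.00432). For these genes every homozygous library was above every control.

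The other members of the 12 largest included genes of signalling and chromatin. The cation channel Trpc4 (2.52 ± 0.32), the membrane protein Tmem132d (5.66-fold), the prokineticin receptor Prokr1 (2.29 ± 0.48), the zinc finger gene Zfp648 (2.27 ± 0.31), the chromatin protein Hmga2 (2.26 ± 0.55) and the schlafen gene Slfn8 (2.25 ± 0.18) were all higher. Prokr1 lost its call without homozygous library 2 or 3 (adjusted p 0.0507 and 0.0527), and Hmga2 without any 1 homozygous library or control 3 (0.0503 to 0.0789). Slfn8 had 15.8, 14.8 and 14.6 CPM against 3.38, 3.56, 3.88, 2.95 and 2.19.

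The largest negative differences included a gene that was even in every control. Pdgfrl, which encodes a receptor-like extracellular protein, had 1.87, 2.09 and 2.14 CPM in the homozygous and 62.0, 75.9, 74.8, 63.4 and 69.1 in the control libraries (-5.08 ± 0.13, 33.8-fold lower, adjusted p = 1.43e-07). Zfpm2, a cofactor of GATA transcription factors, had 0.234, 0.408 and 0.0951 against 49.7, 19.9, 40.6, 23.02 and 43.8 CPM (-7.13 ± 0.56, adjusted p = 2.19e-04). Both kept their call in all 8 fits without a library. Ereg, an epidermal growth factor receptor ligand, had 3 counts in the homozygous libraries against 705 in the controls, a depth-scaled ratio of 137 (95% counting interval 46.8 to 667). Pkd2l1, a polycystin channel, had 0.187, 0.0453 and 0 against 6.72, 1.78, 6.04, 4.76 and 7.96 CPM (-6.04 ± 0.81). The remaining members of the 12 largest were early response and heat shock genes (Atf3, Arc, Egr2, Hspb1, Hspa1a) and matrix genes of fibroblasts (Col1a1, Col3a1, Lum), which are described with their groups below.

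Proteasome subunits other than the catalytic ones were higher almost throughout. Of 28 subunits of the core ring, base and lid, all tested, 24 were higher and 4 were not called. For all 28 the homozygous libraries lay above the controls. Of all tested genes 9.31% were called higher, and the groups did not overlap for 30%, in either direction. The median log2 fold change was 0.66. Summed CPM was 5042, 5085 and 5067 in the homozygous and 2764, 2945, 3448, 2848 and 3903 in the control libraries. Psmd11, a lid subunit, had 148, 147 and 149 against 76.1, 76.2, 82.5, 74.4 and 95.7 CPM (0.87 ± 0.10, 1.83-fold, adjusted p = 0.00126). Psmd3, another lid subunit, had 254, 248 and 251 against 133, 147, 141, 128 and 158 CPM (0.83 ± 0.09), and Psmd2 of the base had 415, 426 and 421 against 212, 241, 238, 214 and 278 (0.83 ± 0.11). The 4 without a call were Psmb1 (0.45), Psma2 (0.43), Psma3 (0.42) and Psmd8 (0.23). With any 1 homozygous library left out 14 subunits were called, and 28 without control 5.

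The catalytic subunits were mixed. Besides Psmb11, the constitutive beta1 subunit Psmb6 was higher (0.60 ± 0.14, adjusted p = 0.0203), with a call lost without any 1 homozygous library (adjusted p 0.0628 to 0.0854). Psmb5, the constitutive beta5, had 94.3, 102 and 95.8 CPM against 51.8, 58.9, 69.3, 55.0 and 98.8 and was not called (0.55 ± 0.21, adjusted p = 0.0885). Control 5 lay among the homozygous values, and without it Psmb5 was called. Psmb8, the immunoproteasome beta5i, was lower at 17.4, 15.1 and 15.7 CPM against 43.7, 45.3, 52.4, 54.2 and 35.6 (-1.51 ± 0.14, 2.86-fold lower, adjusted p = 3.91e-04). The other immunoproteasome subunits Psmb9 (0.15 ± 0.28, adjusted p = 0.736) and Psmb10 (0.36 ± 0.33, adjusted p = 0.448) were not called. Psme1, the alpha subunit of the interferon-inducible proteasome activator PA28, was lower (21.1, 21.2 and 17.7 against 51.6, 35.9, 55.2, 49.4 and 49.7 CPM, -1.27 ± 0.16), and Psme2, its partner subunit, was not called (-0.32 ± 0.17).

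The chains of class I molecules were lower. B2m, the light chain of all class I molecules, had 620.4, 578 and 688 CPM against 2322, 1249, 1854, 1645 and 1998 (-1.53 ± 0.21, adjusted p = 0.00224). H2-D1 had 789, 786 and 847 against 1982, 1459, 1743, 1695 and 1596 CPM (-1.07 ± 0.13), and H2-K1 had 1269, 1163 and 1274 against 2771, 1972, 2303, 2342 and 2396 (-0.93 ± 0.13). Class I heavy chains are alike in sequence and differ between mouse strains, so reads can be split among them or lost, and the effect of this was not tested. Nlrc5, the transactivator of class I genes, was lower too (10.99, 9.20 and 11.8 against 55.5, 22.6, 38.8, 35.0 and 44.8 CPM, -1.89 ± 0.29). The peptide transporter genes Tap1 (0.03 ± 0.10) and Tap2 (0.15 ± 0.14) and tapasin, Tapbp (0.14 ± 0.09), were not called. Of the 21 genes of this list 2 were higher and 6 lower, with a median of -0.01. Over all tested genes 9.31% were higher and 13.6% lower, so the higher count is no result about the list. The higher were Psmb11 and Psmb6. Of these only Psmb11 was called without any 1 homozygous library, and 4 members were higher without control 5.

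The class II list of 22 genes had 3 higher and 7 lower members and a median of -0.13. Over all tested genes 9.31% were higher and 13.6% lower, so the higher count is no result about the list. The class II chains themselves were not called. H2-Aa had 2114, 2151 and 2164 CPM against 2449, 2283, 2446, 2551 and 2436 (-0.18 ± 0.09, adjusted p = 0.186), H2-Ab1 -0.14 ± 0.09, and the invariant chain Cd74 -0.12 ± 0.12. The lower members were H2-Oa and H2-Ob, which modulate peptide exchange (-0.51 ± 0.08 and -1.95 ± 0.27), H2-DMb1 (-0.36 ± 0.11), the ubiquitin ligase March8 (-0.73 ± 0.13) and the cathepsins Ctss (-1.88 ± 0.49), Ctsz (-1.05 ± 0.22) and Ctsb (-0.58 ± 0.12). The higher members were the transactivator Ciita (0.35 ± 0.09), Rfxap (0.40 ± 0.09) and the thiol reductase Ifi30 (0.54 ± 0.10). Without any 1 homozygous library the counts were 1 higher and 3 lower. H2-DMb1 was called in 2 of the 8 fits that leave out a library, Ciita also in 2, Ctss in 3, and Ctsb, Ctsz and Rfxap in the 5 that leave out a control.

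Immediate early and stress genes were far lower in the homozygous transgenic libraries. These genes respond within minutes to growth factors, heat or tissue dissociation. Beside 13.6% of all tested genes called lower, 25 of 26 tested members were lower, with a median log2 fold change of -3.01. Their summed CPM was 2256, 1736 and 1363 in the homozygous and 15598, 7368, 18182, 12762 and 8084 in the control libraries. The controls themselves differed by more than 2-fold, with libraries 2 and 5 the lowest, yet each was above each homozygous library. Myc was the exception (0.12 ± 0.11, adjusted p = 0.467).

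Single members show the size of the difference. Atf3, a stress-induced transcription factor, had 6.45, 2.27 and 3.38 CPM against 634, 188, 987, 412 and 186 (-6.90 ± 0.82, 119.5-fold lower, adjusted p = 0.00126). Fos had 185, 81.2 and 73.4 against 2006, 1229, 2330.2, 1916 and 772 CPM (-3.86 ± 0.49), and its dimer partner Jun had 305, 242 and 176 against 2304, 1204, 2234, 1894 and 1138 CPM (-2.86 ± 0.32). Egr1 had 342, 342 and 193 against 1928, 1489.6, 2029, 1783 and 905 CPM (-2.47 ± 0.31), and Egr2 of the same family 3.09, 1.86 and 0.999 against 81.5, 34.9, 107, 73.5 and 22.7 (-5.003 ± 0.65). Dusp1, a phosphatase that switches off MAP kinases, had 12.8, 8.11 and 6.71 against 229, 132, 258, 193 and 91.8 CPM (-4.29 ± 0.42, adjusted p = 5.10e-04).

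The activity-regulated gene Arc, outside that list, had 0.374, 0.317 and 0.285 against 29.1, 4.56, 31.9, 12.1 and 14.6 CPM (-5.81 ± 0.79). Heat shock genes depended more on the library. Hspa1a had 16.1, 12.1 and 10.8 CPM against 811, 24.3, 827, 217 and 499.9 (-5.21 ± 1.08, adjusted p = 0.0117), so control 2 lay near the homozygous values. Its call was lost without any 1 homozygous library (adjusted p 0.0533 to 0.0638). Hspb1, a small heat shock protein, was also lowest of the controls in library 2 (0.701, 0.680 and 0.666 against 55.0, 2.78, 71.4, 14.0 and 33.7 CPM, -5.70 ± 1.12) and lost its call without homozygous library 2 or 3 (adjusted p 0.0536 and 0.0538). Neither gene was called by limma-voom.

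Interferon-response genes were lower as well, with less spread among the controls. Of 24 tested, 23 were lower, with a median of -1.28, beside 13.6% of all tested genes called lower. Summed CPM was 3059, 2790.0 and 2842 in homozygous and 5471, 5355, 6469, 6130.5 and 5048 in control libraries. Irf7, the regulator of type I interferon genes, had 69.2, 64.1 and 58.2 CPM against 299.6, 267, 301, 291 and 235 (-2.12 ± 0.11, 4.35-fold lower, adjusted p = 2.27e-05). Usp18, which removes ISG15 from proteins, had 83.1, 72.5 and 74.7 against 165, 157, 180.3, 195 and 167 CPM (-1.17 ± 0.09), and the virion tether Bst2 had 66.0, 57.9 and 62.7 against 159, 170.0, 169, 133 and 148 (-1.32 ± 0.11). Cxcl9, a chemokine, was the member without a call (-1.46 ± 0.52, adjusted p = 0.0736).

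Genes known to vary between laboratory strains were lower too, and the labels do not name a strain for either group. Of 15 tested, 12 were lower (median -1.60), beside 13.6% of all tested genes. Mx1 (-1.64 ± 0.16) and Mx2 (-2.16 ± 0.34), antiviral GTPases, are members of the interferon list as well. The nonclassical class I genes H2-T22 (72.6, 67.5 and 66.9 against 184, 155, 180.4, 176 and 161 CPM, -1.31 ± 0.09, adjusted p = 9.98e-05), H2-T10 (-1.68 ± 0.18), H2-Q6 (-1.88 ± 0.23) and H2-Q7 (-1.83 ± 0.27) were among the lower, and they form families whose reads can be shared. The transhydrogenase Nnt, deleted in part in some strains, was not called (66.5 ± 3.15 against 69.4 ± 17.3 CPM, mean ± SD, n = 3 and 5, -0.05 ± 0.18, adjusted p = 0.865), and its sign turned without control 2 or 4. A strain difference and the other differences between the sets cannot be told apart here.

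Cholesterol synthesis genes were higher. Of 21 tested genes 17 were higher and 1 lower, with a median of 0.89, beside 9.31% and 13.6% of all tested genes. Summed CPM was 1597, 1864 and 1739.9 in homozygous and 739.5, 899, 828, 766 and 1146 in control libraries. Cyp51, the sterol demethylase, had 61.4, 75.6 and 68.8 CPM against 19.8, 31.9, 22.7, 19.9 and 27.7 (1.497 ± 0.16, 2.82-fold, adjusted p = 8.32e-04). Sqle, the squalene epoxidase, had 244, 286 and 284 against 105, 132, 111, 114 and 146 CPM (1.16 ± 0.12). Ebp, a sterol isomerase, was the lower member (-0.60 ± 0.14), with a call lost without any 1 homozygous library (adjusted p 0.0626 to 0.103). The higher count was 8 without homozygous library 2 and 9 without library 3.

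Other housekeeping groups held fewer calls. Across all tested genes 9.31% were called higher and 13.6% lower. Of 28 cell cycle genes 1 was called, the cyclin Ccnd1, which was lower (2.24, 2.63 and 3.09 against 12.7, 6.84, 9.70, 11.9 and 13.4 CPM, -2.04 ± 0.27), although the list median was 0.37. The proliferation marker Mki67 had 212, 251 and 264 against 159.8, 181, 173, 76.0 and 201 CPM and was not called (0.61 ± 0.27, adjusted p = 0.133). Of 22 nuclear respiratory chain subunits 3 were higher (median 0.22) and of 12 mitochondrially encoded subunits 1 was higher (median -0.11). Both counts are near the share over all genes and are no result about the lists. Of 28 ribosomal proteins 8 were lower (median -0.26), such as Rps23 (-0.48 ± 0.11). In none of these 3 lists was a member called without any 1 homozygous library. Without control 5 the respiratory chain count was 14 and the ribosomal count 13, and the latter was 1 without control 3 or 4.

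Histone and nuclear RNAs were lower in part, beside 13.6% of all tested genes called lower. Of 7 tested replication-dependent histones 5 were lower (median -1.83), such as Hist1h1c, a linker histone (23.9, 24.8 and 24.4 against 96.0, 79.5, 81.1, 131 and 35.0 CPM, -1.78 ± 0.34). Their mRNA mostly lacks a poly(A) tail, so a library of polyadenylated RNA samples them in part. The count was 3 without homozygous library 2 or 3. Of 10 tested nuclear-retained and small nucleolar host RNAs 4 were lower (median -0.51), such as Snhg5 (23, 20.4 and 19.8 against 38.0, 35.4, 40.0, 39.6 and 27.0 CPM, -0.76 ± 0.13). Of these Snhg5 alone was called without any 1 homozygous library, and 2 were without control 3.

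**Figure D3:**
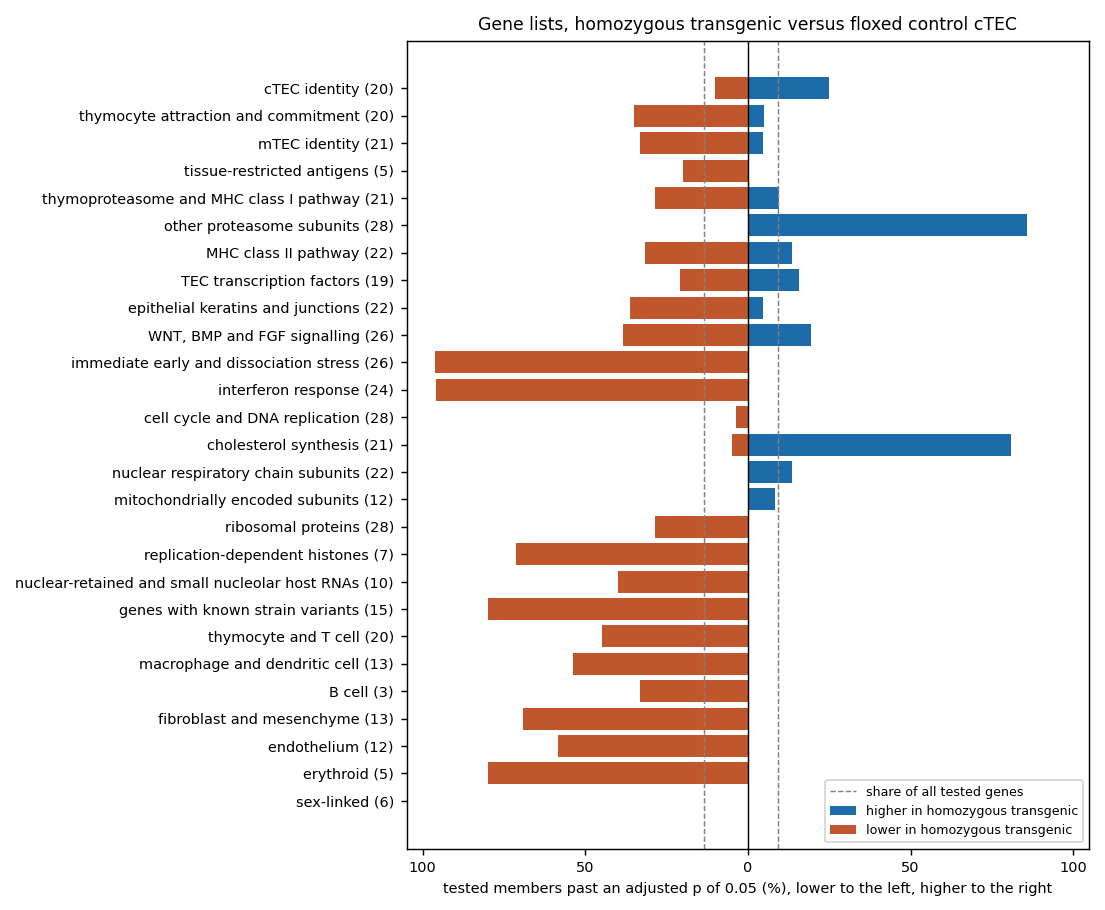
Share of the tested members of each gene list called lower (orange, left) or higher (blue, right) in homozygous transgenic cells, in percent, with the number tested in brackets and dashed lines at the share of all tested genes (13.6% lower, 9.31% higher). Immediate early, interferon and strain-variant genes reach far to the left, and proteasome subunits and cholesterol synthesis far to the right.

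Genes of medullary cells and of other keratin programmes were lower in part. The mTEC identity list had 7 of 21 lower and 1 higher (median -1.35), beside 13.6% and 9.31% of all tested genes. Ccl21a, a chemokine of medullary epithelium, had 35.9, 51.3 and 56.4 CPM against 1151, 231, 628, 287 and 617 (-3.62 ± 0.58, adjusted p = 0.00415), and reads of its near-identical copies cannot be assigned with certainty. Krt14, a basal keratin, had 40.3, 40.3 and 39.9 against 140.0, 169, 149, 147 and 77.3 CPM (-1.75 ± 0.21, adjusted p = 0.00137). Aire, the regulator of tissue-restricted antigens, stood at 2.48, 2.95 and 1.33 against 9.64, 1.96, 6.81, 7.11 and 9.03 CPM (-1.62 ± 0.50, adjusted p = 0.0479), and its call held only in the fit without control 2 among the 8 that leave out a library. Ltbr, the lymphotoxin beta receptor, was the higher member (220.2, 205 and 212 against 117, 128, 131, 123 and 158 CPM, 0.70 ± 0.11). Without any 1 homozygous library 2 members of this list were lower, without control 1 there were 4 and without control 2 there were 12. Without control 5, 3 members were higher. Of 5 testable tissue-restricted antigens 1, Muc1, was lower (-1.12 ± 0.25), with a call lost without any 1 homozygous library (adjusted p 0.0634 to 0.0846).

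Among keratins and junction genes 8 of 22 were lower and 1 higher (median -0.48), beside 13.6% and 9.31% of all tested genes. Krt7, a simple epithelial keratin, had 173, 158 and 172 against 457, 342, 509, 324 and 563 CPM (-1.39 ± 0.21), and Pkp1, a desmosome plaque protein, 39.7, 34.3 and 44.7 against 181, 122, 99.1, 85.5 and 118 (-1.61 ± 0.25). Desmoplakin, Dsp, the core desmosome linker, was higher (3536, 3555 and 3649 against 2440.1, 2101, 2242, 2021 and 2551 CPM, 0.66 ± 0.12). The cortical keratins Krt8 (0.55 ± 0.29, adjusted p = 0.202) and Krt18 (0.58 ± 0.27, adjusted p = 0.156) were not called. Without homozygous library 1, 2 or 3 the lower count was 3, 3 and 4. The higher count was 2 without control 2 and 3 without control 5.

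Transcription factors of thymic epithelium were mixed, with 3 of 19 higher and 4 lower (median -0.15), beside 9.31% and 13.6% of all tested genes, so that these counts are no result about the list. Foxn1 and Pax1 were among the higher. Elf3, an epithelial ETS factor, had 4.30, 4.12 and 3.57 against 34.5, 19.5, 33.5, 46.1 and 16.9 CPM (-2.90 ± 0.35, adjusted p = 0.00127), and Gata3, which acts in the pharyngeal pouch and in T cells, 1.12, 1.09 and 0.951 against 5.35, 2.10, 3.88, 3.31 and 4.43 (-1.85 ± 0.34). The other calls were Ehf (-1.29 ± 0.33) and Foxc1 (-0.56 ± 0.11), which were lower, and Six4 (0.45 ± 0.12), which was higher. Ehf, Foxc1 and Six4 lost their calls without any 1 homozygous library, Ehf also without control 3 and Six4 without control 1 or 4, which left 2 lower members without any 1 homozygous library. Hoxa3 (-0.15 ± 0.15), Pax9 (-0.09 ± 0.08) and Eya1 (-0.42 ± 0.19), which act with Pax1 in the early thymus, were not called.

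In WNT, BMP and FGF signalling 5 of 26 genes were higher and 10 lower (median -0.47), beside 9.31% and 13.6% of all tested genes. The Id genes, targets of BMP signalling that inhibit basic helix-loop-helix factors, were lower together. Id3 had 23.3, 19.4 and 19.5 against 136, 110.5, 133, 134 and 68.4 CPM (-2.48 ± 0.23, adjusted p = 4.19e-04), Id2 had 10.4, 8.97 and 7.94 against 73.1, 76.2, 65.3, 101 and 29.0 (-2.90 ± 0.35), and Id1 had 17.6, 16.7 and 18.5 against 53.1, 67.4, 56.2, 61.1 and 31.5 (-1.60 ± 0.21). The WNT receptor Fzd6 was higher (134, 132 and 139 against 77.3, 101, 71.0, 88.5 and 78.6 CPM, 0.70 ± 0.10), as was the ligand Bmp7 (203, 195 and 194 against 124, 149, 142, 143 and 144 CPM, 0.50 ± 0.07). Without any 1 homozygous library 2 members were higher and 5 or 6 lower, and 3 were higher without control 1 or 3.

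Signals to thymocytes had 1 of 20 members higher, Dll4, and 7 lower (median -0.25), beside 9.31% and 13.6% of all tested genes. Among the lower were the chemokine Ccl19 (1.68, 1.86 and 1.90 against 21.8, 7.89, 11.5, 11.01 and 10.01 CPM, -2.77 ± 0.36) and the Notch target Hes1 (33.1, 33.5 and 32.1 against 56.7, 54.4, 53.2, 48.4 and 43.1 CPM, -0.63 ± 0.10). The stem cell factor gene Kitl was not called (258, 266 and 291 against 182, 306, 248, 203 and 231 CPM, 0.22 ± 0.15, adjusted p = 0.309). Without any 1 homozygous library 4 members were lower and 0 higher, and without control 5 there were 4 higher.

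Transcripts of other cell types were lower in the homozygous libraries as well, beside 13.6% of all tested genes called lower. In bulk RNA of sorted cells, fewer cells of a type and less RNA per cell cannot be told apart. Fibroblast markers had 9 of 13 tested members lower (median -3.65), with summed CPM of 305, 335 and 309.5 in the homozygous and 1209.7, 1133, 915, 880.4 and 655 in the control libraries. Dcn, a matrix proteoglycan, had 30.4, 28.1 and 32.1 against 392, 638, 409, 454 and 196 CPM (-3.77 ± 0.34, adjusted p = 3.99e-04), and Col1a2 had 3.69, 4.94 and 3.80 against 97.0, 45.0, 44.3, 41.5 and 34.0 (-3.65 ± 0.40). Col3a1 had 2.85, 2.13 and 2.28 against 235, 19.7, 84.7, 77.2 and 83.4 CPM (-5.37 ± 0.83), and Col1a1 had 0.888, 0.680 and 0.238 against 75.5, 1.87, 19.3, 16.2 and 25.2 (-5.51 ± 1.20), with control 2 near the homozygous values and a call lost without any 1 homozygous library (adjusted p 0.0579 to 0.0706). Lum, another proteoglycan, had 0.701, 1.18 and 0.761 against 22.99, 84.4, 14.5, 26.1 and 4.56 CPM (-5.07 ± 0.98) and lost its call without homozygous library 3 (adjusted p 0.0524). None of Col1a1, Col3a1 and Lum was called by limma-voom. Tcf21 was at 0 in all 3 homozygous libraries, and without homozygous library 1, 2 or 3 the lower count was 5, 5 and 4.

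Blood cell markers were low in both groups and uneven among the controls. Thymocyte markers had 9 of 20 lower (median -1.92), with summed CPM of 189, 138 and 198 in homozygous and 744, 125, 729, 345 and 920.4 in control libraries. Control 2 was thus below every homozygous library and the other 4 controls above. The lower count was 0 without any 1 homozygous library, 1 without control 1 or 3, 4 without control 5 and 18 without control 2. Cd4 had 6.22, 3.67 and 6.23 against 31.3, 3.92, 24.6, 15.5 and 36.6 CPM (-2.07 ± 0.64, adjusted p = 0.0459), with a call that held only in the fit without control 2, and the recombinase gene Rag1 had 35.5, 22.4 and 40.8 against 154, 23.8, 132, 60.3 and 167 (-1.72 ± 0.60, adjusted p = 0.0665).

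Other blood and vessel markers were lower in part, beside 13.6% of all tested genes. Macrophage and dendritic cell markers had 7 of 13 lower (summed CPM 8.23 to 10.99 against 12.1 to 53.4). The complement gene C1qb, among them, had 2 counts in homozygous and 320 in control libraries (ratio 93.4, counting interval 25.7 to 775). The count was 1 or 2 without any 1 homozygous library and 11 without control 2. Endothelial markers had 7 of 12 lower (6.18 to 9.12 against 7.75 to 45.1 summed CPM), 1 or 2 without any 1 homozygous library, 2 without control 1 or 3 and 11 without control 2. Erythroid markers had 4 of 5 lower (0.856 to 2.06 against 0.638 to 36.2), and 0 without any 1 homozygous library or control 1, 3 or 4. B cell markers had 1 of 3 lower (5.002 to 5.61 against 9.32 to 13.6), and 0 without any 1 homozygous library or control 3 or 4, with Blk at 0 in the homozygous libraries. None of 6 sex-linked transcripts was called by edgeR or DESeq2, and 0 had an unadjusted p under 0.05 in edgeR.

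The part of these markers in the gene groups above was not tested. In control 2 the thymocyte, macrophage and erythroid sums were 125, 12.1 and 0.638 CPM, against homozygous ranges of 138 to 198, 8.23 to 10.99 and 0.856 to 2.06. In the same library the immediate early sum was 7368 CPM and the interferon sum 5355, each above every homozygous library. Its fibroblast sum, 1133 CPM, was above every homozygous library too, as were its macrophage sum and its B cell sum (12.7 CPM against 5.002 to 5.61). Its endothelial sum, 7.75 CPM, lay within the homozygous range of 6.18 to 9.12.

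**Figure D4:**
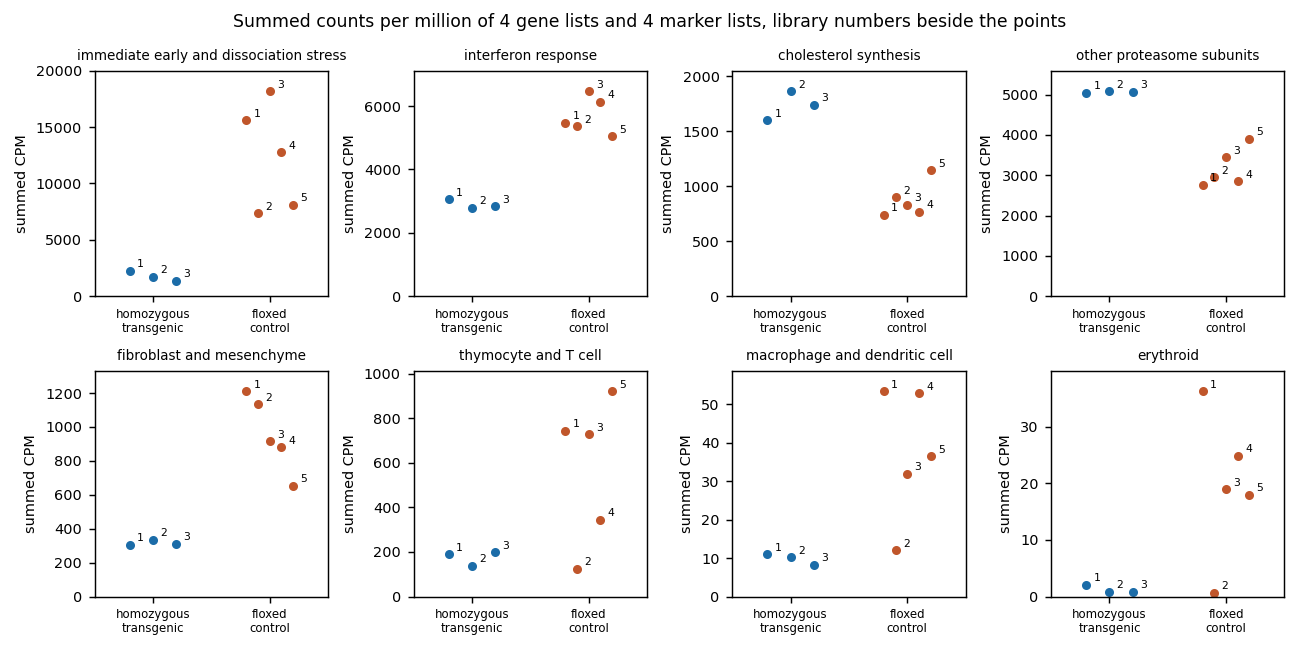
Summed CPM of 4 gene lists (top) and 4 marker lists (bottom) in each of the 3 homozygous transgenic and 5 control libraries, with library numbers beside the points and linear axes from 0. The upper lists and fibroblast markers separate the groups, whereas control 2 lies with the homozygous libraries in thymocyte and erythroid markers.

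A second pair of cTEC groups spans the same 2 experimental sets without sharing a library, and is not independent of the first. It sets cells heterozygous for the Foxn1 transgene on the nude background (n = 3) against Foxn1-deleted cells (n = 5). The latter carry the same beta5t-rtTA and Foxn1 fl/fl alleles as the controls plus a heterozygous tetO-Cre, and were also taken 72 h after doxycycline. Same-numbered control and Foxn1-deleted libraries deviated together from their group means across genes (r of 0.624, 0.756, 0.0936, 0.398 and 0.481 for numbers 1 to 5), and the same values for homozygous and heterozygous libraries were low (0.115, 0.108 and 0.0534 for numbers 1 to 3). In this pair 3403 of 15621 tested genes were higher in the transgenic cells (21.8%) and 3712 lower (23.8%), 45.5% in all. Without normalization factors, a setting chosen after seeing the data, the split was 4751 higher and 3032 lower, so that 39% of the calls were lower in place of 52.2%, and the median of all genes moved from 0.00 to 0.10 on the log2 scale. Among 15114 genes tested in both comparisons, 969 were higher in both, which is 68.2% of the 1420 higher in the homozygous comparison and 29.4% of the 3291 higher in the second. Lower in both were 1497, which is 72.5% of 2066 and 41.7% of 3592. Without normalization factors 1068 were higher and 1399 lower in both. Opposite calls were made for 90 genes, 34 of them higher and 56 lower in the homozygous comparison. A further 417 higher and 513 lower genes were not called in the second pair, and a missing call does not show that they differ between the pairs.

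Psmb11, Unc119, Slc13a2 and Foxn1 were higher in both pairs. In the second pair Psmb11 had a log2 fold change of 8.24 ± 0.35, Unc119 of 1.90 ± 0.07 (397, 365 and 405 CPM in heterozygous transgenic and 86.9, 103, 94.5, 93.5 and 108 in Foxn1-deleted libraries), Slc13a2 of 1.63 ± 0.17 and Foxn1 of 1.33 ± 0.13. Aldoc, an aldolase gene among the neighbours of Foxn1, had estimates of opposite sign, -1.18 ± 0.49 here without a call (adjusted p = 0.11) and 3.11 ± 0.26 in the second pair (adjusted p = 5.05e-05). Pdgfrl was again at 1.01, 1.16 and 1.15 CPM in the 3 transgenic and 49.6, 73.6, 56.7, 76.7 and 59.8 in the 5 floxed libraries (-5.93 ± 0.19), and Zfpm2 was lower again (-7.93 ± 0.45). Ramp3, a receptor-modifying protein, was higher in both (2.21 ± 0.33 and 2.28 ± 0.46), as was Megf10 (3.28 in the second). The matrix gene Tnxb (-4.93 ± 0.77 and -5.66 ± 0.61) and the complement component C3 (-4.60 ± 0.71 and -4.52 ± 0.73) were lower in both.

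The gene groups can be read side by side, but the shares over all tested genes differ between the pairs. In the homozygous comparison 9.31% were called higher and 13.6% lower, against 21.8% and 23.8% in the second pair. Equal counts therefore do not mean an equal excess over these shares. Immediate early genes had 25 of 26 lower here and 23 of 26 in the second pair, and interferon genes 23 and 24 of 24. Cholesterol synthesis had 17 of 21 higher in each, and the strain-variant list 12 and 13 of 15 lower. The proteasome list had 24 of 28 higher here and 10 of 28 there, with medians of 0.66 and 0.13. Without normalization factors the second pair gave 18 proteasome genes higher, 21 immediate early and 23 interferon genes lower, and 19 cholesterol genes higher. Ccl25 was lower in the heterozygous than in the Foxn1-deleted libraries (6.04 ± 0.347 and 84.2 ± 37.1 CPM, -3.90 ± 0.44) and not called here (adjusted p = 0.544). The difference between the pairs was not tested.

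The 6 named genes with opposite calls were lower in the homozygous comparison and higher in the second. Cd24a, a surface glycoprotein of immature cells, had 7.81, 6.21 and 6.61 CPM in homozygous and 30.2, 20.8, 32.1, 26.1 and 28.5 in control libraries (-1.999 ± 0.18, adjusted p = 4.18e-04), but 85.3 ± 10.7 in heterozygous and 27.9 ± 4.27 in Foxn1-deleted cells (1.51 ± 0.14, adjusted p = 8.03e-05). The basal keratin Krt15 had -3.34 ± 0.99 here and 1.55 ± 0.21 there, with 0.795, 0.907 and 0.713 CPM in the homozygous and 4.30, 25.1, 2.80, 8.84 and 1.03 in the control libraries. Fam107a, an actin-associated protein (-3.86 ± 0.87 and 2.22 ± 0.50), Lect1, which encodes chondromodulin (-3.01 ± 0.74 and 1.59 ± 0.41), the monooxygenase Fmo2 (-2.22 ± 0.62 and 1.52 ± 0.20) and Bmp4 (-1.79 ± 0.55 and 1.48 ± 0.29) were the others. Except for Cd24a, each lost its call in the homozygous comparison without any 1 homozygous library (adjusted p 0.0586 to 0.152 over the lost fits, some without a control among them). In that comparison limma-voom called none of Krt15, Fam107a, Lect1, Fmo2 and Bmp4.

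**Figure D5:**
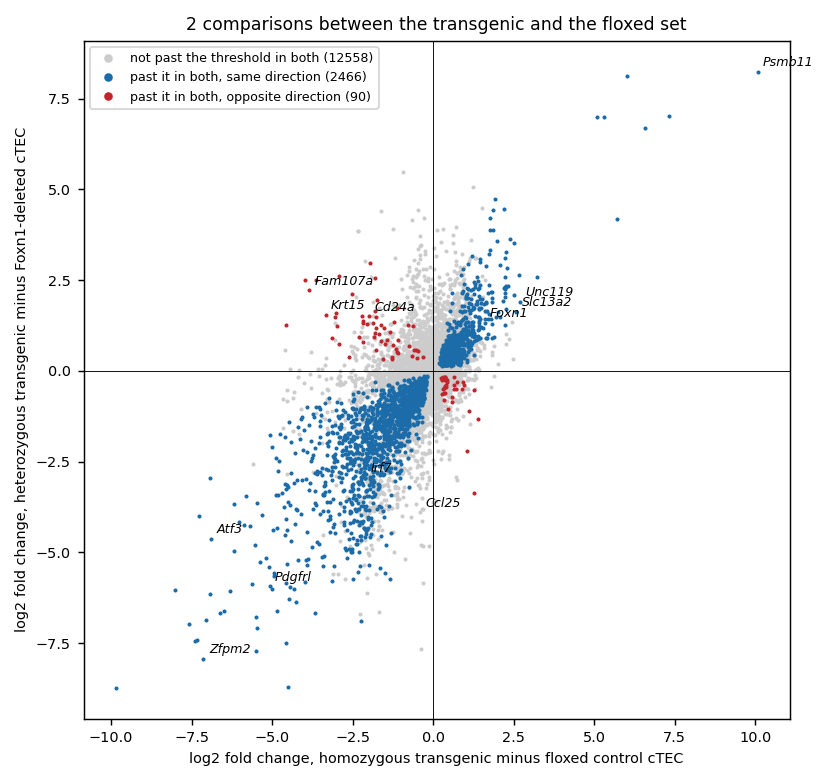
Log2 fold change of 15114 genes in the homozygous transgenic against control comparison (horizontal) and in the heterozygous transgenic against Foxn1-deleted comparison (vertical), with genes past the threshold in both in blue (same direction, 2466) or red (opposite, 90). Psmb11 lies at the upper right, Zfpm2, Pdgfrl and Atf3 at the lower left, and Cd24a, Krt15 and Fam107a at the upper left.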

How the data were processed

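Poly(A) RNA was read from sorted cTEC. The authors deposited 1 table of whole-number read counts per gene (38720 genes, 29693 with a count, in 20 libraries), unnormalized. The submitters' processing notes name TopHat2 2.0.10, featureCounts and the build GRCm38 (mm10). For annotation and strandedness of counting, nothing is given in the sources used here, so reads of overlapping genes cannot be assigned with certainty. The 3 homozygous transgenic and 5 control libraries were compared with edgeR 4.0.16 (R 4.3.3), by the quasi-likelihood test with TMM factors (0.970 to 1.04) on genes that passed a filter on low counts (filterByExpr, minimum count 10, minimum total 15). P-values were two-sided and adjusted by Benjamini and Hochberg over all tested genes, with calls at 0.05. The second pair was fitted in the same way. The labels do not say that libraries came from separate animals, so p-values measure the spread between these libraries, which may be technical. CPM are counts divided by the library's total and scaled to 1000000. Single values per library were tested by an exact permutation test. Counting intervals are 95% intervals for counting error only, with reads taken as independent.

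Gene lists (419 of 423 list members and 88 of 92 markers were in the table), members and named genes were chosen with earlier results of these data known. Named by rule were 12 cTEC genes, the 12 largest differences in each direction (groups not overlapping, mean CPM of at least 5, predicted genes, ribosomal pseudogenes and receptor segments left out), up to 3 members of smallest p per list and direction, 8 genes per direction called in both pairs, 6 with opposite calls, and called neighbours of Foxn1 and Psmb11. Further list members and neighbours were named after their values were seen. Neighbours (10 protein-coding genes per side) and promoters came from RefSeq (GRCm38.p6), matched by symbol. The alternatives were DESeq2 1.42.0, limma-voom (limma 3.58.1) with and without sample weights, other scaling and filters, a joint fit of 16 libraries, a replicate block and leaving out each library.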

Additional observations from a re-analysis of the deposited data

Results flagged for a closer look

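In 10 of 201 values examined, 1 control library lay far from the other 4 (chance gives about 1 in 20). Library 2 was the highest control for Lum (84.4 CPM, next 26.1), Prokr1 (8.48, next 2.86), Proca1 (2.51, next 1.72) and Ctnnb1, the gene of beta-catenin (991 CPM, next 885). Library 1 was the highest for Ccl19 (21.8 CPM, next 11.5) and Col1a2 (97.0, next 45.0) and the lowest for Bmp7 (124, next 142). Library 5 was the highest for Slc13a2 (24.6 CPM, next 14.2) and Cdh24 (23.3, next 14.6) and the lowest for Pax9 (213, next 248). Each value is that of a single library. For all of these genes but Cdh24 and Pax9 the groups did not overlap even with it, beside 30% of all tested genes. The naming rule required this of Lum, Prokr1 and Slc13a2, and the others that did not overlap were named for a call. The lack of overlap is therefore no result about these genes.

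Overlap in both pairs is described here only for the 6 named genes with opposite calls. The 8 genes per direction called in both pairs had been picked for not overlapping in either pair. In 4 of them every homozygous transgenic library was below every control while every heterozygous transgenic library was above every Foxn1-deleted one. Over all tested genes the groups did not overlap for 30% in the homozygous comparison and 49.2% in the second pair, in either direction. The 6 genes were chosen by their calls and the size of their differences, so these shares are not a like measure for them. The log2 fold changes in the 2 pairs were -3.86 and 2.22 for Fam107a, -3.01 and 1.59 for Lect1, -3.34 and 1.55 for Krt15, and -1.999 and 1.513 for Cd24a. The difference between the pairs was not tested.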

How the results depend on the processing

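The counts of 1430 higher and 2085 lower genes became 3092 and 3434 in limma-voom with sample weights, 2268 and 2992 in a joint fit of 16 libraries, and 245 and 1273 when only calls of at least 2-fold were counted. Leaving out a library gave 392 to 2213 higher and 687 to 2648 lower genes, and the fits without a homozygous library gave the fewest, with 2 libraries left in that group. In the second pair the 3403 higher and 3712 lower genes became 772 and 1686 at 2-fold or more. Without normalization factors, a setting chosen after seeing the data, the homozygous comparison gave 1372 higher and 2060 lower genes and the second pair 4751 and 3032, where 39% of the calls were lower in place of 52.2%. limma-voom gave 1456 higher and 1429 lower genes in the homozygous comparison (49.5% lower in place of 59.3%). Of 1376 values of named genes under settings other than leaving out a library, 1287 kept their direction and side of the threshold, 47 lost a call and 42 gained it. limma-voom accounted for 24 of the lost calls. Of 1373 values with a library left out, 225 lost a call and 5 changed sign: Enpep without homozygous library 3 or control 2 or 4, over a range of -0.0825 to 0.127, and Nnt without control 2 or 4, over -0.167 to 0.0342. Neither gene was called. The median of all genes lay between -0.08 and 0.00 across settings in the homozygous comparison and between -0.10 and 0.10 in the second pair.

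Library numbers did not pair the groups compared. Same-numbered homozygous and control libraries deviated together with r of 0.102, 0.274 and 0.00529 across genes. Within a set, same-numbered control and Foxn1-deleted libraries deviated together in 4 of 5 numbers (r of 0.398 to 0.756), and 0.0936 for number 3. With the numbers as a replicate block, 1518 genes were higher and 2100 lower, and 2276 and 2741 in the second pair.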

Other observations

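Predicted genes were left out of the named set, and 2 of them, picked after their values were seen, had large differences between every library of the 2 groups. Gm15772 had 244, 264 and 230.3 CPM in the homozygous and 2.28, 2.60, 2.66, 3.26 and 2.10 CPM in the control libraries (log2 fold change 6.58 ± 0.12 SE, adjusted p = 1.19e-08, edgeR). In the second pair its log2 fold change was 6.69 ± 0.16. Gm6166 had 1.36, 1.68 and 1.90 CPM in the homozygous and 204, 138, 249, 166 and 607 in the control libraries (-7.38 ± 0.70, adjusted p = 5.06e-04, and -7.44 ± 0.56 in the second pair). Reads of such predicted genes can be shared with near-identical copies, so both values are uncertain.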
